A study of Mus musculus with 6 samples.

Results

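The 10 genes described here belong to the brain's extracellular matrix: the 4 lecticans Acan, Bcan, Ncan and Vcan, the link proteins Hapln1, Hapln2 and Hapln4, the hyaluronan synthases Has2 and Has3, and tenascin-R (Tnr). They were picked by gene symbol out of 55357 genes in the count tables, and all 10 were among the 21876 genes tested. The libraries came from primary neuronal cultures of mouse cortex and hippocampus, prepared from wild-type C57BL/6N embryos at embryonic day 18. The cultures received lentivirus at day in vitro (DIV) 4 and were collected at DIV 14, and polyadenylated RNA was sequenced. In the shPla2g4e group (3 libraries) the virus carried sh2, a short hairpin RNA against Pla2g4e, which encodes a calcium-dependent N-acyltransferase. In the shCtrl group (3 libraries) it carried a scrambled hairpin, so that both groups were transduced cells. A single hairpin sequence was used, the cultures are whole dishes and not sorted neurons, and nothing states that the libraries of a group came from separate cultures or animals. The p-values below therefore measure only the spread between these libraries, which may be technical.

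Hyaluronan is a long sugar chain that synthases at the cell surface spin out into the space between brain cells. Lecticans are chondroitin sulphate proteoglycans that bind hyaluronan with one end and tenascin-R with the other, and link proteins lock the lectican onto the hyaluronan chain. Where this complex condenses around the cell body and dendrites of certain neurons, above all parvalbumin interneurons, it is called a perineuronal net, and looser forms of the same matrix surround synapses and nodes of Ranvier.

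Between 17054717 and 23570180 reads per library were counted on genes, and the 10 matrix genes took 0.127 to 0.132% of them in shCtrl and 0.144 to 0.157% in shPla2g4e. Levels are given as CPM, reads of the gene scaled to the same library size after TMM normalization, a correction for differences in library composition. Pla2g4e itself was at 38.0, 35.1 and 35.4 CPM in shCtrl and at 21.8, 14.1 and 18.7 CPM in shPla2g4e, so that 50.5% of the transcript was left (log2 fold change -0.99, SE 0.13, edgeR adjusted p = 1.24e-04).

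The hairpin's sequence is shown because a hairpin guide can also pair, through its seed (bases 2 to 8), with transcripts other than its target. Capitals mark the seed in the guide and the 7 letters that pair with it elsewhere. The target lies in exon 11 of Pla2g4e, in the coding sequence (GRCm38, chr2:120182753-120182771, minus strand). The 7 letters GTGGCCA were then looked for on the sense strand of each gene's transcript with the longest coding sequence (GENCODE annotation of GRCm38). They stood in the 3′ untranslated region (3′ UTR) of 2 of the 10 matrix genes, Vcan (chr13:89656002-89656008, minus strand) and Tnr (chr1:159928850-159928856, plus strand), each shown with its surroundings.
sh2 target in Pla2g4e: ggaagatggtgGTGGCCAa
sh2 guide: tTGGCCACcaccatcttcc
Vcan 3′ UTR: tgtagaatagtGTGGCCAttgcttactgt
Tnr 3′ UTR: aagccacgtgaGTGGCCAcattaaagaca

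The transcripts of Hapln1, Hapln2, Bcan, Has2 and Has3, 5 of the 10, held the 7 letters nowhere. The coding sequence held them in Acan (2 places), Ncan (4), Vcan (3), Hapln4 (1) and Tnr (1). Across the 15493 tested genes with an annotated 3′ UTR, 1860 (12%) held the letters there, against 38.1% of the 843 that fell and 6.14% of the 472 that rose. Hapln1, the matrix gene that fell, was thus among those without a match, while Vcan and Tnr, which had one in the 3′ UTR, did not pass the test. A match is a stretch of letters and was not tested as a site of silencing.

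Knockdown cultures held less Hapln1, to 46.8% of the shCtrl level, and no other matrix gene of the 10 passed the test (edgeR's quasi-likelihood test, Benjamini-Hochberg adjusted p under 0.01 over all genes tested). Summed over the 10 genes, RNA was at 1275 to 1391 CPM in shCtrl and at 1415 to 1516 CPM in shPla2g4e, without overlap. The 4 lecticans and Tnr, which made up most of the RNA of the set, differed by at most 0.26 on the log2 scale. The rarer genes Hapln4 and Has2 were higher in every knockdown library than in any shCtrl library without passing. The 1 call among 10 genes, 10%, stands beside 6.49% of all genes tested, where 876 calls were lower and 543 higher. Of the 10 log2 fold changes, 5 were below and 5 above 0, with a median of -0.04 against 0.03 over all genes. In 5 of the 10, the libraries of the groups did not overlap, as was the case for 30.0% of all genes.

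The labels number the libraries of both groups, and same-numbered libraries deviated together. With the number as a block in the model, 3 of the 10 genes passed, Hapln1 lower and Bcan and Hapln4 higher. The block raised the share of calls to 15.5% of all genes tested.

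**Figure D1:**
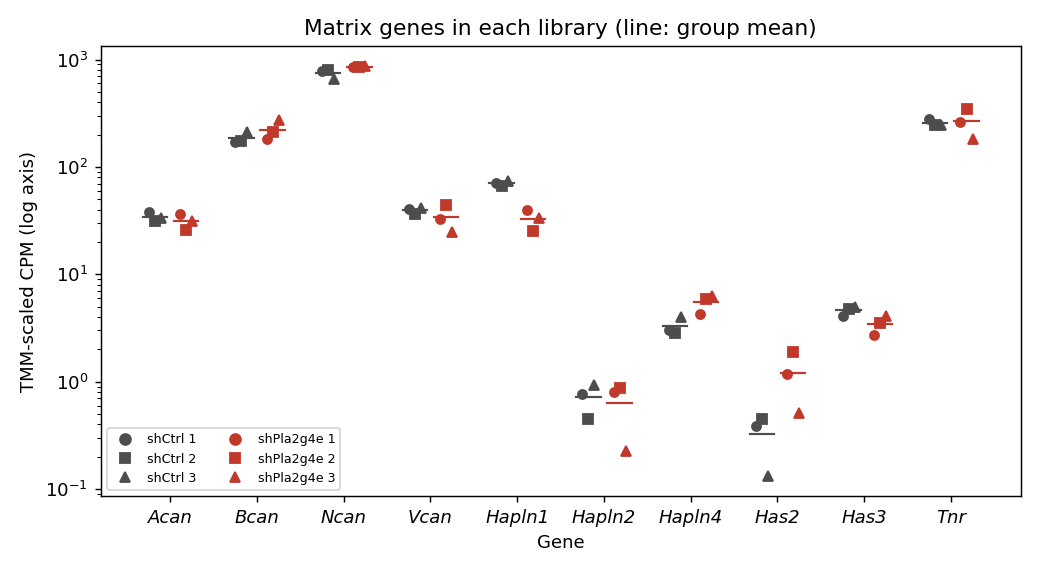
Level of each of the 10 matrix genes in each of the 6 libraries, as TMM-scaled CPM on a log axis, with shCtrl in grey, shPla2g4e in red, the symbol giving the library number and the line the group mean. Hapln1 is the abundant gene whose groups stand far apart (66.1 to 74.5 against 25.5 to 39.9 CPM), while Has2 and Hapln2 stay at or below 1.90 CPM.

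Hapln1 encodes the link protein that clamps lecticans to hyaluronan in cartilage and in perineuronal nets (ENSMUSG00000021613, GRCm39 chr13:89687915-89759771, plus strand). It was at 70.3, 66.1 and 74.5 CPM in the shCtrl libraries and at 39.9, 25.5 and 33.4 CPM in the knockdown libraries. The highest knockdown library lay well below the lowest shCtrl library, and the spread within each group was small beside the gap. The log2 fold change was -1.09 (SE 0.12, 95% interval -1.36 to -0.83, edgeR adjusted p = 2.96e-05). By p-value the gene stood at place 145 of all genes tested. It passed under all 17 alternative fits, with log2 fold changes from -1.26 to -0.94.

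Hapln4 encodes the brain link protein that joins the matrix around inhibitory synapses of the cerebellum and brainstem (ENSMUSG00000007594, GRCm39 chr8:70536107-70543512, plus strand). It was a rare transcript, at 3.06, 2.87 and 4.0 CPM in shCtrl and at 4.27, 5.92 and 6.28 CPM in shPla2g4e. The groups did not overlap, although shCtrl library 3 and knockdown library 1 lay close together. The mean was 1.66 times higher in the knockdown group (log2 fold change 0.72, SE 0.22, 95% interval 0.25 to 1.19, edgeR adjusted p = 0.0436). With the replicate block the adjusted p was 0.00438, and leaving out 1 library gave 0.0278 to 0.162, all in edgeR.

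Hapln2 encodes the link protein of the nodes of Ranvier, made by myelinating cells (ENSMUSG00000004894, GRCm39 chr3:87929057-87934890, minus strand). Its levels were 0.78, 0.45 and 0.93 CPM in shCtrl and 0.79, 0.88 and 0.23 CPM in shPla2g4e. The libraries overlapped, and at this depth the 95% interval of the log2 fold change ran from -1.30 to 0.98 (value -0.16, edgeR adjusted p = 0.901). Its sign turned when library 3 of either group was left out.

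Levels of different genes can be set side by side only per length of transcript, and CPM per kb of annotated exon was used for that. On this scale Hapln1 made up 88.8, 88.8 and 85.7% of the summed RNA of the 4 link protein genes, Hapln3 included, in the shCtrl libraries and 74.2, 63.5 and 66.6% in the knockdown libraries. The share of Hapln4 was 5.81, 5.80 and 6.91% in shCtrl and 11.9, 22.2 and 18.9% in shPla2g4e, and that of Hapln3 2.98, 3.86 and 4.72% against 10.2, 8.89 and 13.4%. None of these shares overlapped between the groups. With most of the sum in Hapln1, a lower Hapln1 raises the shares of the others by itself, and Hapln1 was the main link protein transcript in all 6 libraries. The lectican shares behaved otherwise. Ncan made up 66.1 ± 4.62% of lectican RNA in shCtrl and 66.0 ± 3.72% in shPla2g4e (SD, n = 3), and the shares of all 4 lecticans overlapped between the groups.

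**Figure D2:**
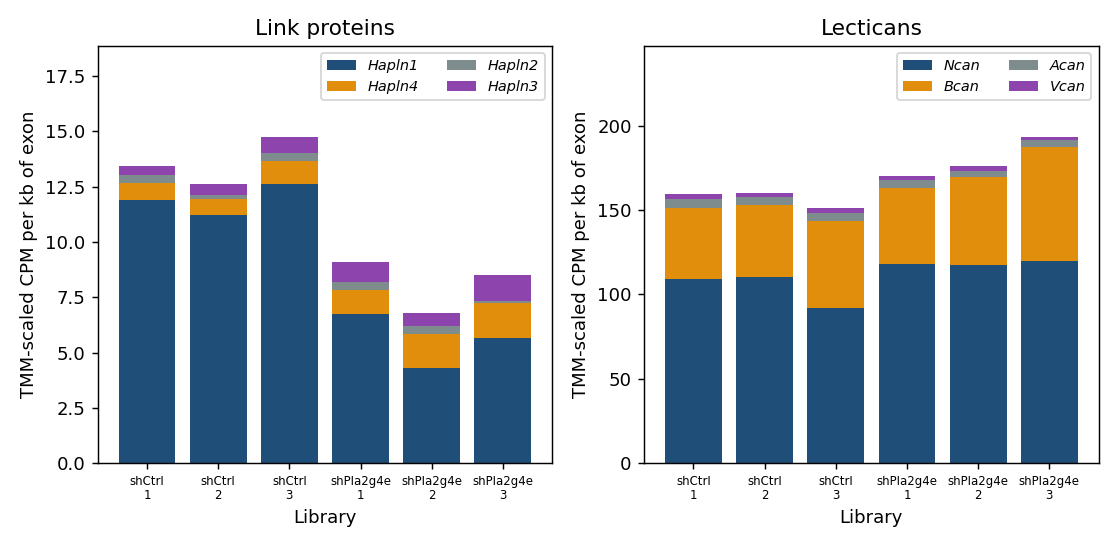
Stacked bars of the 4 link proteins (left) and the lecticans (right) in each library, in TMM-scaled CPM per kb of exon. The link protein bars are lower in the 3 knockdown libraries, through Hapln1, while the lectican bars are not, and Ncan with Bcan fills nearly all of each lectican bar.

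Ncan encodes neurocan, the lectican of the developing brain's loose matrix (ENSMUSG00000002341, GRCm39 chr8:70545735-70573523, minus strand). It was the most abundant of the 10 genes, at 787, 792 and 660 CPM in shCtrl and at 850, 845 and 863 CPM in shPla2g4e. The 3 knockdown libraries lay close together and above all 3 shCtrl libraries, the lowest of which was library 3. The difference was small, 0.19 on the log2 scale (SE 0.09, 95% interval 0.01 to 0.37), and did not pass (edgeR adjusted p = 0.166, and 0.0117 with the replicate block).

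Bcan encodes brevican, a lectican of mature perineuronal and perisynaptic matrix that both neurons and glia make (ENSMUSG00000004892, GRCm39 chr3:87894838-87907537, minus strand). It was at 171, 176 and 211 CPM in shCtrl and at 182, 213 and 274 CPM in shPla2g4e. The groups overlapped, and library 3 was the highest in both. The log2 fold change was 0.26 (SE 0.12, 95% interval -0.001 to 0.52, edgeR adjusted p = 0.196). Compared within library numbers the gene passed, with a log2 fold change of 0.25 (95% interval 0.12 to 0.38, edgeR adjusted p = 0.00219). Leaving out 1 library moved the unblocked value between 0.09, without knockdown library 3, and 0.39, without knockdown library 1.

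Acan encodes aggrecan, the lectican that defines most perineuronal nets (ENSMUSG00000030607, GRCm39 chr7:78703231-78764847, plus strand). Its levels were 38.0, 31.3 and 33.3 CPM in shCtrl and 36.3, 25.8 and 31.1 CPM in shPla2g4e. The groups overlapped, with library 1 the highest and library 2 the lowest in both. The log2 fold change was -0.14 (SE 0.12, edgeR adjusted p = 0.537), with a 95% interval from -0.39 to 0.12, which does not reach the change seen for Hapln1.

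Vcan encodes versican, a lectican of early development, of oligodendrocyte lineage cells and of the nodes of Ranvier (ENSMUSG00000021614, GRCm39 chr13:89803431-89890628, minus strand). It was at 40.4, 36.5 and 41.9 CPM in shCtrl and at 32.7, 44.7 and 24.6 CPM in shPla2g4e. The shCtrl libraries lay close together, whereas the knockdown libraries spread to both sides of them. On the log2 scale the change was -0.22 (SE 0.15, 95% interval -0.54 to 0.11, edgeR adjusted p = 0.424). It was -0.46 without knockdown library 2 (edgeR adjusted p = 0.0270), -0.04 without knockdown library 3 and 0.01 without library 3 of both groups.

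Tnr encodes tenascin-R, which cross-links lecticans in perineuronal nets and is made by oligodendrocytes and some neurons (ENSMUSG00000015829, GRCm39 chr1:159351339-159759299, plus strand). It was at 276, 246 and 244 CPM in shCtrl and at 265, 350 and 183 CPM in shPla2g4e. The knockdown libraries again lay on both sides of the shCtrl libraries, in the same order as for Vcan. The log2 fold change was 0.06 (SE 0.16, 95% interval -0.27 to 0.39, edgeR adjusted p = 0.870). It was -0.19 without knockdown library 2 and 0.27 without knockdown library 3.

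Has2 encodes the synthase that makes most of the long-chain hyaluronan of embryonic tissue (ENSMUSG00000022367, GRCm39 chr15:56529023-56557935, minus strand). It rested on 8, 9 and 3 reads in the shCtrl libraries and on 28, 41 and 9 reads in the knockdown libraries. Scaled, these were 0.39, 0.45 and 0.13 CPM against 1.17, 1.90 and 0.51 CPM. The groups did not overlap, though shCtrl library 2 and knockdown library 3 lay next to each other, and library 3 was the lowest in both groups. The log2 fold change of 1.89 was the highest of the 10 genes and had the widest interval (SE 0.58, 95% interval 0.67 to 3.12, edgeR adjusted p = 0.0414). Without knockdown library 3 the adjusted p in edgeR was 0.0095, without knockdown library 2 it was 0.252 (log2 fold change 1.40), and with the replicate block it was 0.0103. An antisense gene, Has2os, covers 4.30% of its annotated exon length.

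Has3 encodes the synthase of shorter hyaluronan chains that is active in the adult brain (ENSMUSG00000031910, GRCm39 chr8:107596874-107611198, plus strand). It was at 4.12, 4.73 and 4.97 CPM in shCtrl and at 2.72, 3.56 and 4.11 CPM in shPla2g4e. The groups did not overlap, but shCtrl library 1 and knockdown library 3 were nearly level. A log2 fold change of -0.42 was measured (SE 0.22, 95% interval -0.88 to 0.04, edgeR adjusted p = 0.246). Per kb and with the third synthase gene Has1 counted in, Has3 made up 44.7, 39.4 and 45.4% of synthase RNA in shCtrl and 25.7, 33.0 and 32.8% in shPla2g4e. The share of Has2 was 6.33, 5.67 and 1.83% in shCtrl and 16.7, 26.5 and 6.17% in shPla2g4e, and overlapped. Has1 held the largest share in all 6 libraries.

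**Figure D3:**
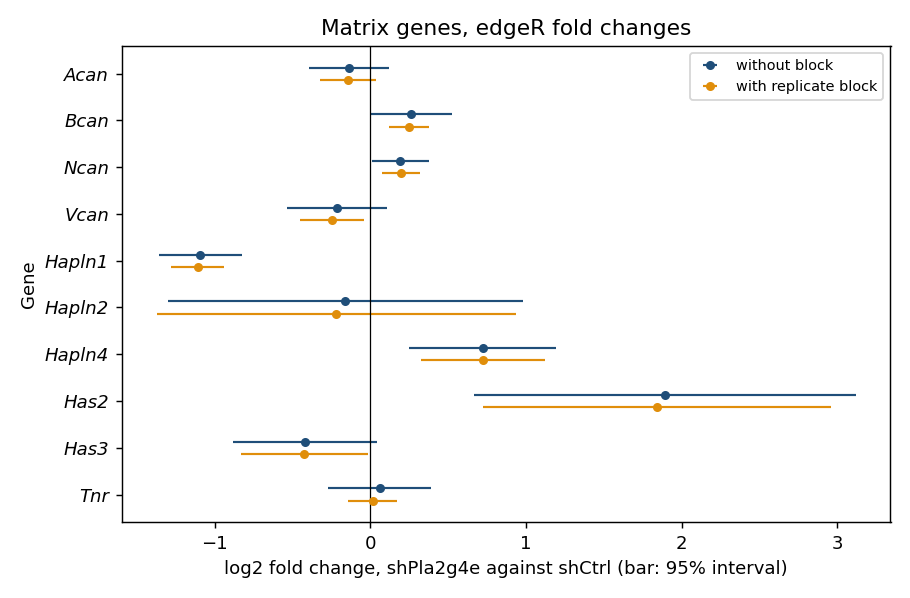
Log2 fold change of each matrix gene in shPla2g4e against shCtrl, with its 95% interval, without the replicate block (blue) and with it (orange). Hapln1 lies furthest below 0 at -1.09, and the intervals of the rare transcripts Hapln2 and Has2 are the widest. Without the block the intervals of Acan, Bcan, Vcan, Hapln2, Has3 and Tnr include 0. With it those of Bcan, Vcan and Has3 do not, though Vcan and Has3 did not pass (edgeR adjusted p = 0.0750 and 0.143).

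In order of level per kb, the shCtrl cultures held Ncan (104 CPM per kb), Bcan (45.7), Tnr (19.8), Hapln1 (11.9), Acan (4.58), Vcan (2.74), Hapln4 (0.84), Has3 (0.72), Hapln2 (0.30) and Has2 (0.08). Each neighbour in that order lay apart in all 3 libraries except Hapln4 and Has3, whose ranges overlapped. In the knockdown cultures the order of the first 8 was the same. There Hapln1 had come down to 5.58 CPM per kb and its range overlapped that of Acan at 4.16, while Has3, Has2 and Hapln2 ran into each other at 0.54, 0.28 and 0.27. These levels use the length of all annotated exons together, which is long for Vcan because of its alternative exons.

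Each link protein gene lies beside a lectican gene, with no other counted gene lying wholly between them. Hapln1 and Vcan face each other 43.7 kb apart, and the log2 ratio of their levels per kb went from 2.09, 2.15 and 2.13 in shCtrl to 1.58, 0.49 and 1.73 in shPla2g4e. That ratio did not overlap between the groups. Hapln4 and Ncan face each other 2.22 kb apart, and their log2 ratio was -7.13, -7.23 and -6.49 in shCtrl and -6.76, -6.28 and -6.23 in shPla2g4e, which overlapped. Hapln2 and Bcan lie 21.5 kb apart on the same strand, and Hapln2 was too rare for a ratio to be read. Hapln3 and Acan face each other 2 bases apart, and their ratio was not calculated.

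The other genes of this matrix were taken from 5 lists with 62 genes, of which 61 were tested. Of these, 6 passed (9.84%), 3 lower and 3 higher, beside 6.49% of all genes. With the replicate block 16 passed, 8 in each direction, where 15.5% of all genes did. The median log2 fold change was 0.01, with 29 genes lower and 32 higher. The log2 fold changes of the 6 lay between -1.01 and 1.39.

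Of 13 genes for hyaluronan precursors, breakdown and receptors, 3 passed. Cemip, which encodes a hyaluronan-binding protein needed for hyaluronan breakdown, was at 83.9, 67.4 and 73.5 CPM in shCtrl and at 37.0, 37.9 and 36.6 CPM in shPla2g4e (log2 fold change -1.01, edgeR adjusted p = 3.80e-06). The knockdown libraries were nearly equal and lay far below the others. Layn, encoding the hyaluronan receptor layilin, rose from 14.6, 9.21 and 10.9 CPM to 26.7, 25.1 and 19.9 CPM (log2 fold change 1.05, edgeR adjusted p = 3.76e-04). Cd44, encoding the main cell-surface hyaluronan receptor, rose from 36.1, 33.6 and 29.7 CPM to 65.8, 77.9 and 41.3 CPM (log2 fold change 0.90, edgeR adjusted p = 0.00164). Neither receptor overlapped between the groups. The call for Cd44 was lost without shCtrl library 2 or 3 and in edgeR's robust fit, with adjusted p up to 0.0751 over all alternatives. The remaining 10 genes of the list, among them Has1 and the hyaluronidase genes Hyal1, Hyal2 and Hyal3, did not pass.

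None of the 6 other proteoglycan, link protein and tenascin genes passed. The 3 with the smallest p-values were Tnxb (5.99 ± 0.61 against 8.66 ± 0.78 CPM, SD, n = 3), Hapln3 (1.85 ± 0.53 against 3.13 ± 0.94 CPM) and Ptprz1, which encodes the phosphacan proteoglycan (493 ± 46.5 against 408 ± 88.0 CPM). With the replicate block Tnxb passed as higher (edgeR adjusted p = 0.00809) and Ptprz1 as lower (edgeR adjusted p = 3.27e-04).

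Among 22 genes that build and sulphate chondroitin chains, 21 were tested and 1 passed. Chst13 had no read in any library. Xylt1, which encodes a xylosyltransferase that starts the chain, fell from 138, 141 and 124 CPM to 111, 96.8 and 99.0 CPM (log2 fold change -0.39, edgeR adjusted p = 0.00572), and it passed under 12 of 17 alternatives, with adjusted p up to 0.0479. Chst11, a chondroitin sulphotransferase gene, and Fam20b, a xylose kinase gene, came next, both lower. With the block both passed (edgeR adjusted p = 7.90e-05 and 0.00571), and Chst11 passed under 5 of 17 alternatives, Fam20b under 1. The block gave 3 lower calls in this list, Xylt1 included, and 1 higher, Chpf (edgeR adjusted p = 0.00118).

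Of 14 genes for matrix proteases and their inhibitors, 1 passed. Adamts1, encoding a protease that cleaves lecticans, rose from 32.5, 25.5 and 24.7 CPM to 75.1, 84.7 and 56.3 CPM (log2 fold change 1.39, edgeR adjusted p = 7.65e-06), with no overlap. Adamts4, another lectican-cleaving protease gene, was at 5.82 ± 1.23 and 8.80 ± 0.42 CPM (SD, n = 3), and Timp4, an inhibitor gene, at 16.3 ± 1.08 and 11.6 ± 2.70 CPM in shCtrl and shPla2g4e. With the block both passed (edgeR adjusted p = 0.00264 and 7.70e-04), and of the 17 alternatives Adamts4 passed under 1 and Timp4 under 4.

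Of 7 genes for ligands held by perineuronal nets or for receptors of chondroitin sulphate, 1 passed. Sema3a, a repulsive guidance cue that binds to the nets, fell from 52.9, 60.5 and 50.1 CPM to 32.5, 23.1 and 31.7 CPM (log2 fold change -0.90, edgeR adjusted p = 1.29e-04), with no overlap between the groups. Nptx2, a neuronal pentraxin gene, and Rtn4r, the Nogo receptor gene, were higher in all knockdown libraries than in any shCtrl library (means of 171 against 122 CPM, and of 61.9 against 48 CPM) and each passed under 6 of 17 alternatives, the block among them. With the block 2 genes of this list passed as higher, these, and 2 as lower, Sema3a and Rtn4rl1. Of the 6 genes that passed without it, Cemip held the 7 seed-pairing letters in its 3′ UTR, Sema3a and Adamts1 held them once in the coding sequence, and Cd44, Layn and Xylt1 held none.

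**Figure D4:**
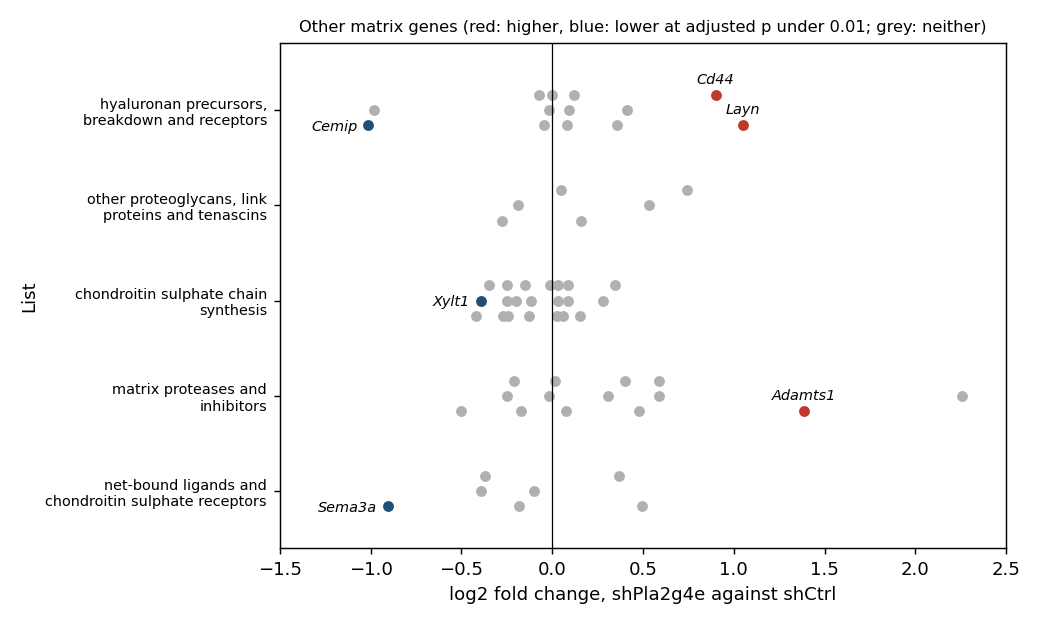
Log2 fold changes of the 61 other matrix genes tested, by list, with those that passed at an adjusted p under 0.01 in blue (lower) or red (higher) and named, and the others in grey. Most genes lie near 0, and the 6 named ones lie between -1.01 and 1.39. The grey point furthest to the right is Mmp3, at 2.26 with an adjusted p of 0.228 in edgeR's test.

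Markers of the cell types in such cultures give the setting for these values. In whole cultures, fewer cells of a type and less RNA per cell cannot be told apart. The 6 neuronal markers summed to 4540 to 4843 CPM in shCtrl and 4037 to 4485 CPM in shPla2g4e, without overlap, though summed per kb the groups overlapped (545 to 593 against 524 to 573), with Rbfox3 and Map2 lower and Nefl higher at an adjusted p under 0.01. These 3 passed under 12, 16 and 16 of the 17 alternatives. With the block Snap25 passed too, as higher, which made 2 lower and 2 higher calls. The 8 genes of the fast-spiking interneuron list summed to 788, 733 and 786 CPM in shCtrl and 673, 583 and 680 CPM in shPla2g4e, also without overlap. Of these 8, 6 were lower and 2 higher, and Lhx6 (log2 fold change -0.93) and Kcnc2 (-0.58) fell, Lhx6 under all 17 alternatives and Kcnc2 under 7. With the block 3 passed as lower, Gad2 (-0.28 without the block) being the third, and 1 as higher, Tac1 (0.51). Gad1 (-0.19) passed under none. The defining marker Pvalb was near 0 in all libraries, at 0.29 to 1.48 CPM, so the list cannot stand here for mature parvalbumin cells. Knockdown library 2 had the lowest Hapln1 and also the lowest sums of the neuronal, interneuron and astrocyte lists and the lowest Pla2g4e. The part of these markers in the Hapln1 result was not tested.

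The 10 astrocyte markers summed to 2978, 3354 and 3805 CPM in shCtrl and 2208, 2051 and 3244 CPM in shPla2g4e. The sums overlapped between the groups and were highest in library 3 of both, where Bcan was also highest. Among the knockdown libraries the sum was lowest in library 2, but Bcan was lowest in library 1. Of the 10 markers, 7 were lower and 3 higher in knockdown. Aqp4, Slc1a2 and Gja1 passed as lower, under 15, 8 and 14 of the 17 alternatives. With the block 7 passed as lower and 1, S100b, as higher (log2 fold change 1.11 without the block). The 6 oligodendrocyte markers summed to 281, 265 and 288 CPM in shCtrl and 311, 371 and 256 CPM in shPla2g4e. None of them passed. In the knockdown libraries their sum had the same order as Tnr and Vcan, with library 2 highest and library 3 lowest. In shCtrl the sum followed the order of Vcan, but Tnr was lowest in library 3, where the sum was highest. The part of these markers in the Bcan, Tnr and Vcan values was not tested. Oligodendrocyte precursor markers summed to 333, 353 and 404 CPM in shCtrl and 331, 445 and 363 CPM in shPla2g4e. In knockdown, library 2 was again highest, but library 1 was lowest. The groups overlapped, and none of the 6 passed without the block. With the block 1 passed as lower, Olig2. Microglial markers summed to 2.59 to 7.73 CPM, with Tmem119 too low to test. None of the endothelial, mural and fibroblast markers passed without the block, and Cldn5 was at 0 in every library. With the block 1 of them passed as higher, Col1a1.

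**Figure D5:**
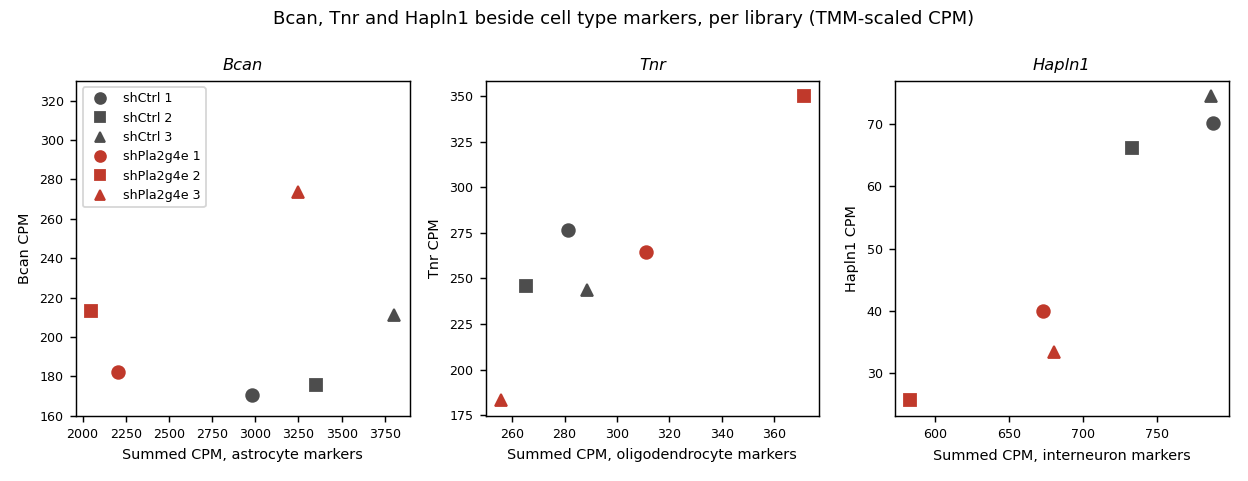
Each panel plots a matrix gene (vertical axis) against the summed level of a marker list (horizontal axis), both in TMM-scaled CPM, for the 6 libraries; the axes do not start at 0. Bcan is highest in library 3 of each group, as are the astrocyte markers, but knockdown libraries 1 and 2 stand in opposite order. Tnr is high and low in the same knockdown libraries as the oligodendrocyte markers, but not in the same shCtrl libraries. Hapln1 and the interneuron markers are both lower in all 3 knockdown libraries.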

How the data were processed

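PolyA libraries (6, stranded kit) were analysed, 3 per group, grouped by the labels. The deposited values were raw read counts per gene, which the authors made with STAR 2.7.0d and featureCounts 1.6.0. Per the file headers, counting used GENCODE vM28 (GRCm39) with no strand, paired-end or multi-mapping option, so reads of overlapping antisense genes cannot be told apart. The methods name another build and annotation, mm10 with GENCODE M18. Symbols came from a name table (52081 of 55357 identifiers matched).

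The 21876 genes that reached 6 reads in any library were fitted with edgeR 4.0.16 (R 4.3.3, TMM, quasi-likelihood F-test), with Benjamini-Hochberg adjustment and a threshold of 0.01. The method was tested on simulated counts with 200 genes changed, a common spread for all genes and no pairing of libraries. That test therefore does not cover the pairing described below. The members and lists were chosen with earlier results of these data known. Named were all 10 members, and in each other list up to 3 genes with the smallest p plus any that passed.

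Depth was 17054717 to 23570180 reads. Libraries differed by more than sampling noise within groups (chi-square per gene 5.65 to 14.0, against 17.3 to 34.1 between groups), and none was merged. Over 10958 genes, deviations from group means of same-numbered libraries correlated at 0.391, 0.188 and 0.46 (others -0.391 to 0.105), so the numbers were taken to pair libraries and a fit with them as a block was run. Alternatives used DESeq2 1.42.0, limma-voom 3.58.1, other scalings and filters, and left out libraries. Hairpin letters came from the study's oligonucleotide list.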

Additional observations from a re-analysis of the deposited data

How the results depend on the processing

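Of 168 values of the 10 members under other fits, 159 kept their direction and their side of the threshold, 4 passed newly, none of those called was lost, and 5 changed sign. The sign changes were Hapln2 without shCtrl replicate 3 (0.07), without shPla2g4e replicate 3 (0.21) and without replicate 3 of both groups (0.44), Tnr without shPla2g4e replicate 2 (-0.19), and Vcan without replicate 3 of both groups (0.0059). Leaving out 1 library moved Hapln2 between -0.45 and 0.21 and Tnr between -0.19 and 0.27. The last setting was chosen after seeing the data. The new calls were Bcan and Hapln4 with the replicate block, and Has2 with no filter on low counts (adjusted p = 0.00499 in edgeR) and without shPla2g4e replicate 3. The block made 3395 calls over all genes, 3 among the members and 16 among the other matrix genes. Pla2g4e and Hapln1 passed in all 17 fits. With no filter there were 2349 calls over all genes, 2 among the members and 11 among the other matrix genes. At an adjusted p of 0.05 there were 2813, 3 and 13. DESeq2 called 10 other matrix genes (it gave no adjusted p for 5514 genes), and the fit without replicate 3 of both groups called 11. Leaving out 1 library gave 695 to 1613 calls over all genes, the fewest without shCtrl replicate 2, 1 to 2 among the members and 4 to 8 among the other matrix genes. Scaling by library size alone moved the median of all genes to 0.10 and turned the split of calls from 876 lower and 543 higher to 609 lower and 796 higher. Hapln2 and Has2 could not be fitted with at least 10 reads in every library. Why these values moved was not tested. Depth limits Hapln2 and Has2, which rest on few reads.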
